A study of Mus musculus with 10 samples.

Results

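The genes described here are Ifit1, Ifit2, Ifit3, Ifit1bl2, Isg15, Usp18, Ube2l6, Herc6 and Rsad2, 9 interferon-induced genes of mouse bone marrow-derived macrophages (BMDMs). They were chosen by name, with earlier results of these data known. A gene was read where the platform annotation gave an array feature to that symbol alone, and 8 of the 9 had such a feature, 1 each, out of 19935 genes with one. All 8 passed the filter on low values and were among 16882 genes tested. Isg15 shared its only feature with the pseudogene Gm9706 and was not read, so no value is given for the modifier itself.

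The series holds 10 Affymetrix arrays that cover whole mouse transcripts, 5 for Rac2-/- and 5 for WT BMDMs, each group numbered 1 to 5. Rac2-/- cells lack Rac2, a GTPase of blood cells. Both groups came from male C57BL mice, and the cells of both were kept in MCSF (50 ng/ml) for 7 of 8 days of culture, in 20% FBS and 16% oxygen, with no interferon or other stimulus named in the labels. The knockout is constitutive, so it is not limited to macrophages, and the labels require only 80% of the cells to be Mac1-positive.

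Type I interferons bind the receptor Ifnar1/Ifnar2 and activate, through Jak1 and Tyk2, the factor ISGF3, which holds Stat2 and Irf9. ISGF3 binds the interferon-stimulated response element in the promoters of its target genes. Macrophages make small amounts of interferon without infection, and this keeps many of these targets switched on at a basal level. Ifit proteins bind viral RNA and restrain its translation. ISGylation is the attachment of the ubiquitin-like protein Isg15 to other proteins, by the E1 enzyme Uba7, the E2 enzyme Ube2l6 and, in the mouse, the E3 ligase Herc6. Usp18 removes Isg15 again and also dampens signalling at Ifnar2. Rsad2 encodes viperin, a radical SAM enzyme that makes an antiviral nucleotide.

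The stretches just upstream of Ifit1, Ifit3 and Rsad2 are printed because each holds the core of that response element. They are read 5′ to 3′ on the strand of the gene, from RefSeq on GRCm38.p6, and end at the base before the annotated start. Capitals mark matches to GAAANNGAAA or, on the other strand, TTTCNNTTTC. Ifit1 lies at chr19:34640744-34640888 on the plus strand, Ifit3 at chr19:34583359-34583528 on the plus strand and Rsad2 at chr12:26456453-26456592 on the minus strand.
Ifit1: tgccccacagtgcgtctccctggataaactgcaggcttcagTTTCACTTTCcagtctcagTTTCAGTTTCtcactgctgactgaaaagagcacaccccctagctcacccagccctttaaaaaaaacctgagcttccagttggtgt
Ifit3: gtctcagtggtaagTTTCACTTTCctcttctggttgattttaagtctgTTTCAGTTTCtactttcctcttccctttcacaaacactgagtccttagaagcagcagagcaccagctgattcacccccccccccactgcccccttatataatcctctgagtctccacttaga
Rsad2: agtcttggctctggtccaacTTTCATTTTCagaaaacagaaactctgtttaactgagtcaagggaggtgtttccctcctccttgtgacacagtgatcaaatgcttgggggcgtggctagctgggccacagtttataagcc
Matches began 104 and 85 bases before the start of Ifit1, 156 and 122 bases before that of Ifit3 and 120 bases before that of Rsad2. Ifit1bl2 had matches 70 and 51 bases before its start. They are the same 2 stretches as those of Ifit1, since the annotated starts of Ifit1 and Ifit1bl2 face away from each other across them. The Isg15 window held 3 overlapping matches, at 78, 72 and 66 bases. Windows of 300 bases, 250 before and 50 after a start, were available for 8 of the 9 genes, and 5 of these genes had a match. Ifit2, Ube2l6 and Herc6 had none in their windows. Over all promoters in the same set of windows, 1131 of 32851 (3.44%) had a match on either strand. A match says only that these letters are present.

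The label was checked first. Rac2 read 6.80 to 7.54 on the log2 scale in the Rac2-/- arrays, against 11.81 to 12.42 in the WT arrays, a log2 difference of -5.0. The 9 macrophage markers tested had a mean level of 11.96 to 12.18 in Rac2-/- arrays and 11.94 to 12.13 in WT arrays. Arrays 1 and 2 stood apart from arrays 3 to 5 in both groups, with correlations of 0.974 to 0.996 within each set and 0.934 to 0.955 between the sets. The labels name no batch, and no source used here tells whether the sets were run separately. Arrays 3 and 4 were the closest pair of each genotype, with an SD of their difference over features of 0.243 in Rac2-/- and 0.187 in WT, against 0.230 to 0.398 for other pairs within a set. The design text names 5 mice of each genotype without tying an array to a mouse, so the p-values rest on the scatter of the arrays, some of it possibly technical.

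All 8 genes had lower means in Rac2-/- than in WT BMDMs, with log2 differences (Rac2-/- minus WT) of -1.41 to -0.73 and a median of -1.0 (all tested features -0.0003). In each of the 8 genes the lowest WT array lay above the highest Rac2-/- array. Over all tested features, 50.1% had a lower mean in Rac2-/- cells, and 2.34% had every Rac2-/- array below every WT array. With limma and Benjamini-Hochberg adjustment over all tested features, 7 of the 8 passed an adjusted p of 0.05, each lower in Rac2-/-. Of all tested features 1.9% passed in either direction, 1.11% being lower and 0.795% higher in Rac2-/- cells. The eighth gene, Ifit2, did not pass. In a bulk culture, fewer cells that make an RNA and less of that RNA per cell cannot be told apart.

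**Figure D1:**
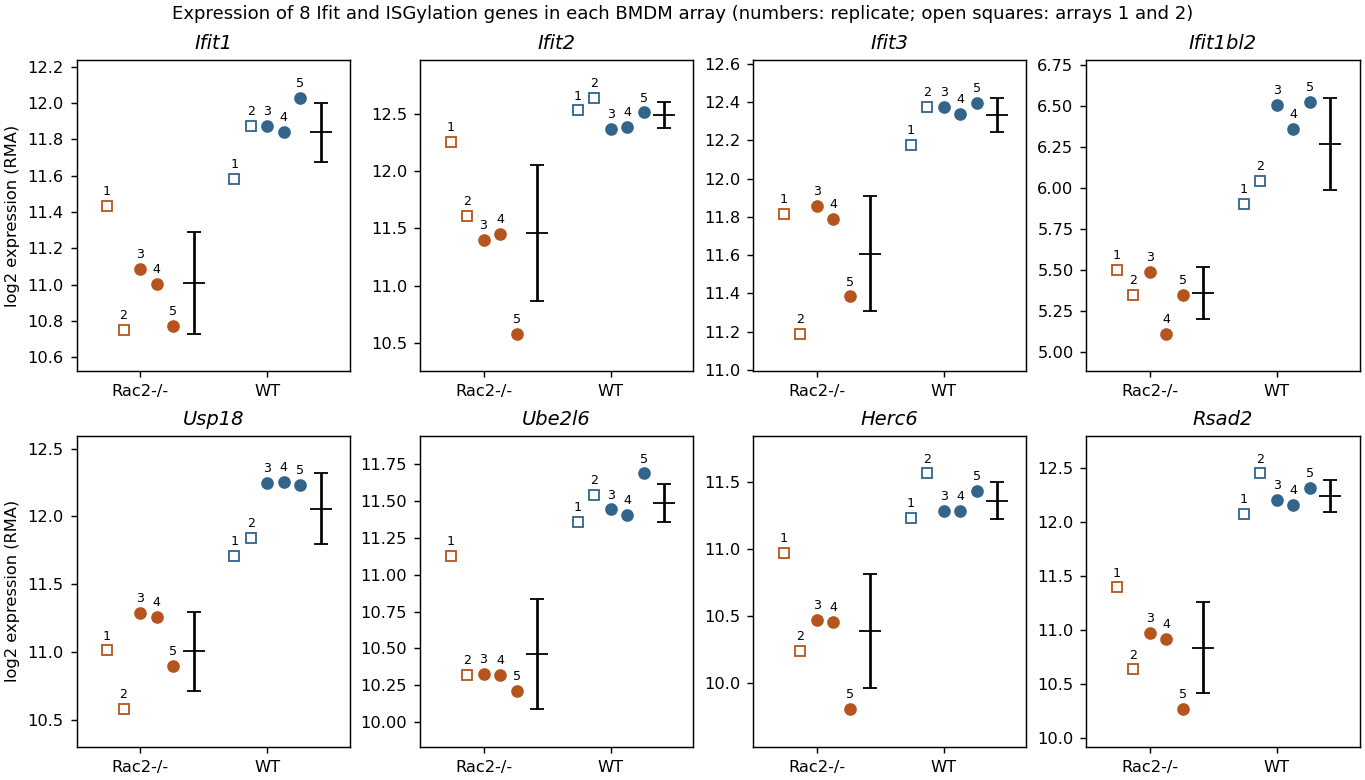
Log2 RMA expression (y axis) of the 8 genes in each Rac2-/- array (left, orange) and WT array (right, blue). Numbers give the replicate, open squares are arrays 1 and 2, filled circles are arrays 3 to 5, and black bars are the mean ± SD (n = 5). The y axes differ between panels and do not start at 0. In every panel all 5 Rac2-/- arrays lie below all 5 WT arrays.

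Among the Ifit genes, Ifit1 encodes a protein that binds RNA lacking cap methylation. Ifit1 read 11.44, 10.75, 11.09, 11.00 and 10.77 in Rac2-/- arrays 1 to 5, against 11.58, 11.87, 11.87, 11.84 and 12.03 in WT arrays 1 to 5. Rac2-/- array 1 came nearest to the WT arrays, 0.15 below WT array 1. The means were 11.01 ± 0.28 in Rac2-/- and 11.84 ± 0.16 in WT (SD, n = 5 each), a difference of -0.83 (SE 0.14, adjusted p = 0.0155), so that WT cells had 1.78 times the Rac2-/- level. Without WT array 3 the adjusted p was 0.0521.

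Ifit2, whose protein also binds RNA and promotes cell death when overexpressed, had the widest Rac2-/- spread of the 8. It read 12.26, 11.61, 11.40, 11.45 and 10.58 in Rac2-/- arrays 1 to 5, against 12.53, 12.64, 12.37, 12.39 and 12.52 in WT arrays 1 to 5. The Rac2-/- arrays spanned 1.68, with array 1 highest and array 5 lowest, while the WT arrays spanned 0.27. The difference was -1.03 (SE 0.25, adjusted p = 0.0774), with means of 11.46 ± 0.60 in Rac2-/- and 12.49 ± 0.11 in WT (SD, n = 5 each). With the replicate number as a block the adjusted p was 0.0384, though the labels do not say that arrays of the same number belong together. With a term for arrays 1 and 2 against 3 to 5 it was 0.0112, and without Rac2-/- array 1 the difference was -1.23 (adjusted p = 0.0134).

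Ifit3 encodes a protein that, in human cells, binds IFIT1 and stabilises it. Its values were 11.81, 11.19, 11.86, 11.79 and 11.38 in Rac2-/- arrays 1 to 5, against 12.18, 12.38, 12.38, 12.34 and 12.40 in WT arrays 1 to 5. Rac2-/- arrays 2 and 5 were the low ones, and array 3 the highest. The difference of -0.73 (SE 0.14, adjusted p = 0.0259) was the smallest of the 8, with means of 11.61 ± 0.30 in Rac2-/- and 12.33 ± 0.09 in WT (SD, n = 5 each). The call was lost without Rac2-/- array 5 (adjusted p = 0.0556) and without WT array 2, 3, 4 or 5 (0.0694, 0.0783, 0.0709 and 0.0764).

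Ifit1bl2, an Ifit1-like gene beside Ifit1, lay close to the floor of the filter, at 4.73. It read 5.50, 5.35, 5.49, 5.11 and 5.35 in Rac2-/- arrays 1 to 5, against 5.90, 6.05, 6.51, 6.36 and 6.53 in WT arrays 1 to 5. WT arrays 1 and 2 were lower than WT arrays 3 to 5, and the Rac2-/- arrays showed no such step. The means were 5.36 ± 0.16 in Rac2-/- and 6.27 ± 0.28 in WT (SD, n = 5 each), a difference of -0.91 (SE 0.14, adjusted p = 0.0103). Ifit1 and Ifit3 have related genes in the mouse. Whether the probes of one feature also bind RNA of another is stated in no source used here, so the values of single Ifit genes are uncertain to that extent.

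Of the ISGylation genes, Usp18 read 11.01, 10.58, 11.29, 11.26 and 10.90 in Rac2-/- arrays 1 to 5, against 11.71, 11.84, 12.25, 12.26 and 12.23 in WT arrays 1 to 5. In both genotypes arrays 3 and 4 were high and arrays 1 and 2 lower, and the groups stayed 0.42 apart. The means were 11.01 ± 0.29 in Rac2-/- and 12.06 ± 0.26 in WT (SD, n = 5 each), a difference of -1.05 (SE 0.16, adjusted p = 0.0110). The call held with each of the 10 arrays left out in turn (highest adjusted p 0.0393).

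Ube2l6, the E2 enzyme, read 11.12, 10.32, 10.33, 10.32 and 10.21 in Rac2-/- arrays 1 to 5, against 11.36, 11.54, 11.44, 11.41 and 11.68 in WT arrays 1 to 5. Rac2-/- arrays 2 to 5 lay within 0.12 of each other and array 1 lay 0.79 above them, still below every WT array. The difference was -1.02 (SE 0.17, adjusted p = 0.0133), with means of 10.46 ± 0.37 in Rac2-/- and 11.48 ± 0.13 in WT (SD, n = 5 each). It passed with each array left out in turn, and without Rac2-/- array 1 the adjusted p was 0.000283.

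Herc6, the E3 ligase, read 10.97, 10.24, 10.47, 10.46 and 9.80 in Rac2-/- arrays 1 to 5, against 11.24, 11.57, 11.28, 11.29 and 11.44 in WT arrays 1 to 5. Its order among the Rac2-/- arrays, array 1 highest and array 5 lowest, was that seen in Ifit2, Ube2l6 and Rsad2. The means were 10.39 ± 0.42 in Rac2-/- and 11.36 ± 0.14 in WT (SD, n = 5 each), a difference of -0.97 (SE 0.19, adjusted p = 0.0267). The call was lost in 8 of the 10 fits that left out an array, with adjusted p of 0.0509 to 0.0773, and held without Rac2-/- array 1 or array 5.

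Rsad2 differed most. It read 11.39, 10.63, 10.97, 10.91 and 10.26 in Rac2-/- arrays 1 to 5, against 12.07, 12.45, 12.20, 12.16 and 12.31 in WT arrays 1 to 5. The nearest arrays of the groups, Rac2-/- array 1 and WT array 1, were 0.68 apart. The means were 10.83 ± 0.42 in Rac2-/- and 12.24 ± 0.15 in WT (SD, n = 5 each), a difference of -1.41 (SE 0.18, adjusted p = 0.00463), so that WT cells had 2.65 times the Rac2-/- level. It passed with each array left out in turn (highest adjusted p 0.0178).

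An exact two-sided permutation test over the arrays gave p = 0.00794 for each of the 8 genes, the smallest value that 5 arrays against 5 allow. That value follows from the lack of overlap given above and adds nothing to it. Within arrays 1 and 2 the 8 differences were -1.25 to -0.55 (median -0.75), and 0 of 8 passed the limma threshold with 2 arrays a group (6 at an unadjusted p of 0.05). Within arrays 3 to 5 they were -1.51 to -0.69 (median -1.12), and 8 of 8 passed, as did 3.04% of all tested features in the lower direction. With the replicate block 8 of 8 passed, as did 3.03% of all tested features in the lower direction, and with the term for the 2 sets of arrays 8 of 8 passed, against 4.36%. With arrays 3 and 4 of each genotype averaged into 1 sample, a check added after their likeness was seen, 0 of 8 passed (adjusted p 0.0527 to 0.317, 8 at an unadjusted p of 0.05), and 7 passed when the term for the sets was added, against 1.87% of all tested features in the lower direction.

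**Figure D2:**
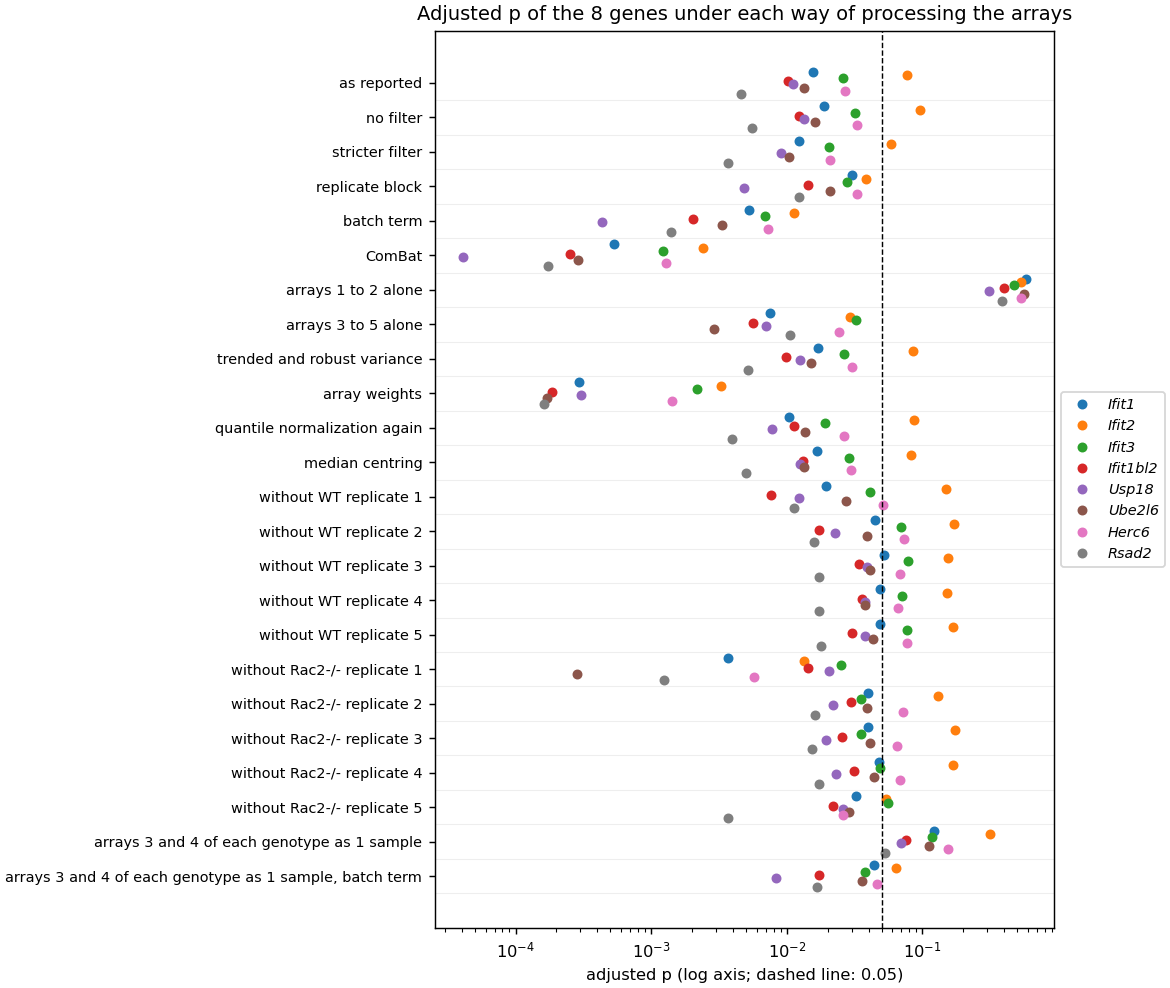
Adjusted p of the 8 genes (x axis, log scale, dashed line at 0.05) under each way of processing the arrays (y axis). Ifit1bl2 has no point under the stricter filter, which removed it. All 8 points lie left of the line with the replicate block, the batch term, ComBat, array weights, arrays 3 to 5 alone or without Rac2-/- replicate 1, and none does with arrays 1 to 2 alone or with arrays 3 and 4 as 1 sample.

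Of the 8 genes, 7 followed each other closely from array to array when both genotypes were pooled after centring, and Ifit1bl2 did so less. The mean over all 8 genes was 10.69, 10.08, 10.36, 10.29 and 9.91 in Rac2-/- arrays 1 to 5, against 11.07, 11.29, 11.29, 11.25 and 11.39 in WT arrays 1 to 5. Rac2-/- array 1 was the highest of its group for 6 genes and array 3 for 2, and the lowest was array 5 for 4 genes, array 2 for 3 and array 4 for 1. Among the 28 pairs of genes, Pearson's r over the 10 arrays was 0.71 to 0.99 (median 0.92), which includes the difference between the genotypes. With each genotype and set of arrays centred on its own mean, r was 0.67 to 1.00 (median 0.95) in the 21 pairs without Ifit1bl2 and 0.11 to 0.48 (median 0.32) in the 7 pairs with it. The 7 genes other than Ifit1bl2 spread more widely over the Rac2-/- than over the WT arrays, and r was not computed within WT alone. All these r are descriptions, since all pairs share the same arrays and thus their RNA and hybridisation. Rac2-/- array 5 also had the highest mean level of 14 S phase and mitosis genes, at 9.999. The Rac2-/- arrays ranged from a low of 7.32, and the WT arrays lay at 6.97 to 7.73. Limma called 0 of the 14 between the genotypes, 0 at an unadjusted p of 0.05. Only 1 of the 14 had a lower mean in Rac2-/- cells (50.1% of all tested features), and their median log2 difference was 0.69. Without Rac2-/- array 5 all 8 differences stayed negative, which follows from the lack of overlap, and 6 of 8 genes passed.

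Genes whose pattern was most like the mean of the 8 were sought among all tested genes, as Pearson's r over the 10 arrays after centring on the 2 sets of arrays. This r includes the difference between the genotypes. The 10 nearest were Sp100 (r = 0.996), Ifi35, Themis2, Trex1, Gbp9, Parp11, Cmpk2, Stat2, Dennd6b and Ogfr (r = 0.993). Without the centring, r was 0.99 for Cmpk2, 0.80 for Sp100 and 0.68 for Ogfr. Genes chosen this way follow a mean that is lower in Rac2-/- cells, so their own differences, -1.89 (Gbp9) to -0.43 (Sp100), are part of the choice and no further result.

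The close partners of the 8 were read next, 5 genes with a feature of their own. Cmpk2, a nucleotide kinase that lies beside Rsad2, read 11.00, 10.09, 10.37, 10.32 and 9.95 in Rac2-/- arrays 1 to 5, against 11.61, 12.04, 11.82, 11.73 and 12.11 in WT arrays 1 to 5. The groups did not overlap, and the difference of -1.52 (SE 0.19, adjusted p = 0.00361) lay near that of Rsad2. Cmpk2 was the only one of the 5 to pass, where 1.11% of all tested features passed as lower. Ifit3b, a copy of Ifit3, had 10.07, 9.33, 8.77, 8.65 and 7.55 in Rac2-/- arrays 1 to 5, against 10.59, 11.07, 10.15, 10.13 and 10.53 in WT arrays 1 to 5, and differed by -1.62 on the log2 scale (SE 0.40, adjusted p = 0.0866). Blocked on the replicate number its adjusted p was 0.0319, and without Rac2-/- array 1 it was 0.0209. All Rac2-/- arrays of Ifit3b lay below all its WT arrays, but they were widely spread.

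The other enzymes of the ISGylation cycle differed less. Uba7, the E1 enzyme, read 9.01 to 9.84 (median 9.32) in Rac2-/- arrays and 9.44 to 9.68 (median 9.55) in WT arrays. These overlapped, and the difference was -0.20 (95% interval -0.51 to 0.11, adjusted p = 0.804). Trim25, an E3 ligase for which an Isg15 ligase activity has been described, differed by -0.47 (adjusted p = 0.0701), with all Rac2-/- arrays below all WT arrays. Its adjusted p was 0.0328 when blocked on the replicate number and 0.0443 without Rac2-/- array 1. Arih1, known in human cells as an Isg15 ligase, differed by 0.02 (95% interval -0.18 to 0.22, adjusted p = 0.999). Whether these differences were smaller than those of Ube2l6 and Herc6 was not tested.

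**Figure D3:**
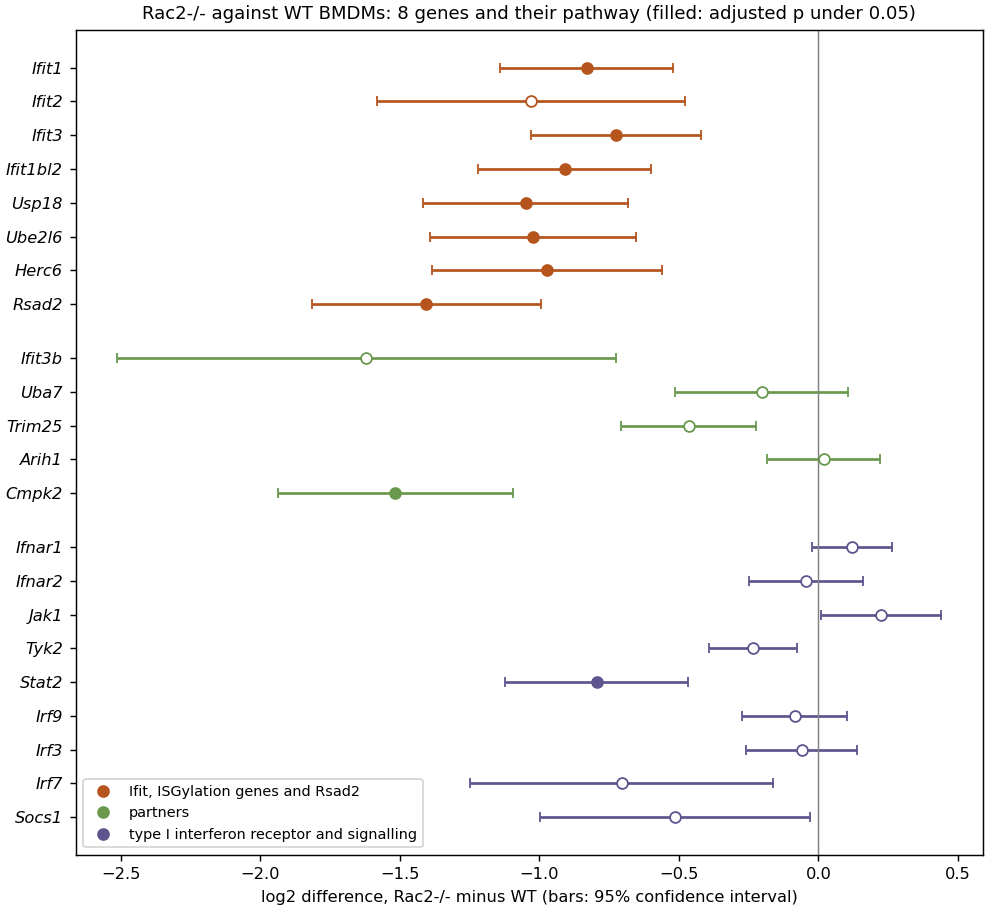
Log2 difference, Rac2-/- minus WT, with its 95% confidence interval (x axis) for the 8 genes, 5 partners and 9 genes of type I interferon reception and signalling (y axis), 5 arrays a genotype. Filled points have an adjusted p under 0.05, and 7 of the 8 genes, Cmpk2 and Stat2 are filled.

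Of 9 genes of the interferon receptor and its signalling, 1 passed, as lower (1.11% of all tested features). At an unadjusted p of 0.05 there were 5, Jak1 among them being higher. In 3 of the 9, Tyk2, Stat2 and Irf7, every Rac2-/- array lay below every WT array (2.34% of all tested features). Stat2, a subunit of ISGF3, read 11.54, 11.05, 11.07, 11.05 and 10.58 in Rac2-/- arrays 1 to 5, against 11.84, 11.94, 11.82, 11.79 and 11.89 in WT arrays 1 to 5. Array 1 was again the highest of the Rac2-/- arrays and array 5 the lowest. The difference was -0.79 (SE 0.15, adjusted p = 0.0245), and the call was lost in 8 of 10 fits that left out an array (0.0534 to 0.0698), held without Rac2-/- array 1 or array 5, and was lost with arrays 3 and 4 as 1 sample (0.156). The receptor chains differed by 0.12 (Ifnar1, adjusted p = 0.643) and -0.05 (Ifnar2, adjusted p = 0.999), the kinases by 0.23 (Jak1, adjusted p = 0.441) and -0.24 (Tyk2, adjusted p = 0.174). With the term for the 2 sets of arrays the adjusted p was 0.0282 for Jak1 and 0.0399 for Tyk2, with the replicate block it was 0.0844 and 0.0920, and with arrays 3 and 4 as 1 sample and the term it was 0.117 and 0.122. The ISGF3 subunit Irf9 differed by -0.09 (adjusted p = 0.946). Irf3, which induces interferon genes, differed by -0.06 (adjusted p = 0.999). Irf7, which amplifies interferon production, differed by -0.71 (adjusted p = 0.264), with Rac2-/- array 5 at 10.82 and the other Rac2-/- arrays at 12.04 to 12.18. Its WT arrays read 12.47 to 12.74. Without Rac2-/- array 5 the difference of Irf7 was -0.44 and its adjusted p 0.0303. Socs1, an inhibitor of the Jak kinases, differed by -0.51 (adjusted p = 0.431, or 0.0354 when blocked on the replicate number).

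Of the type I interferon genes, 4 passed the filter, and limma called 0 of these (0 at an unadjusted p of 0.05, and 1, Ifnb1, with the term for the sets). Ifnb1, named after its values were seen, read 5.40, 5.36, 5.09, 5.04 and 4.96 in Rac2-/- arrays 1 to 5, against 6.06, 5.87, 5.35, 5.25 and 5.21 in WT arrays 1 to 5. In both genotypes arrays 1 and 2 were higher than arrays 3 to 5, and the groups overlapped only across these sets. Within arrays 1 and 2, and within arrays 3 to 5, every Rac2-/- array lay below every WT array. All these values were low, between the floor of the filter at 4.73 and the array medians of 6.07 to 6.14. The difference was -0.38 (SE 0.18, adjusted p = 0.544), and the adjusted p was 0.0541 with the replicate block and 0.0178 with the term for the 2 sets of arrays.

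Among 40 other interferon-stimulated genes tested, 38 had a lower mean in Rac2-/- cells, 12 passed as lower and 2 as higher, and the median difference was -0.64. With the replicate block 23 passed as lower and 2 as higher. Of the 7 named by the smallest adjusted p, Phf11d, Tor3a, Daxx, Oasl1 and Ms4a4c were lower in Rac2-/- cells, with log2 differences of -1.61, -0.66, -0.86, -1.66 and -1.03 (adjusted p = 0.00790, 0.0112, 0.0121, 0.0155 and 0.0182). Oasl1 limits the translation of Irf7. The call of Oasl1 was lost without WT array 3 or 4 (0.0511 and 0.0506) and that of Ms4a4c without WT array 2 or 3 (0.0507 and 0.0510), and the study chose Ms4a4c on these arrays.

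Ifi44l and Ifi27 ran the other way. Ifi44l read 11.56, 11.20, 10.88, 10.98 and 6.65 in Rac2-/- arrays 1 to 5, against 4.69, 4.91, 4.93, 4.98 and 4.63 in WT arrays 1 to 5, a difference of 5.43 (SE 0.81, adjusted p = 0.00848). Rac2-/- array 5 was low but still above every WT array. Within arrays 3 to 5 the difference was 4.66 and did not pass (adjusted p = 0.0643). Ifi27 read 8.61, 8.69, 8.81, 8.77 and 9.85 in Rac2-/- arrays 1 to 5, against 7.83, 7.58, 7.84, 7.75 and 7.53 in WT arrays 1 to 5, a difference of 1.24 (SE 0.22, adjusted p = 0.0194). Its call was lost without WT array 2, 3, 4 or 5 (0.0516 to 0.0592), and Ifi27 was also chosen by the study on these arrays. With arrays 3 and 4 of each genotype as 1 sample, the calls of all 7 genes named here were lost (adjusted p 0.0715 to 0.118), and with the term for the sets added all 7 passed.

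**Figure D4:**
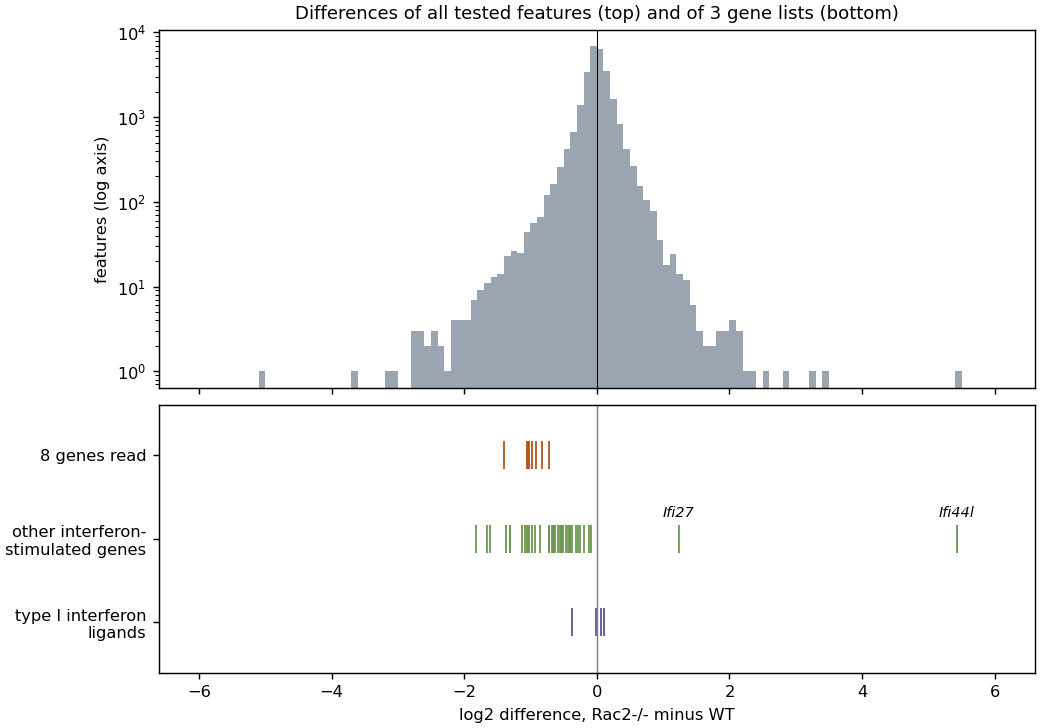
Distribution of the log2 difference, Rac2-/- minus WT (x axis), over all tested features (top, number of features on a log axis) and for the 8 genes, 40 other interferon-stimulated genes and 4 type I interferon ligands (bottom, 1 line per gene). All lines of the 8 genes lie below 0, and Ifi27 and Ifi44l are the 2 of the 40 above it.

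Markers of other cell types were read beside these results. All 6 plasmacytoid dendritic cell markers tested, a cell type known for interferon production, had lower means in Rac2-/- cells (50.1% of all tested features). Tcf4 (-0.05) and Lag3 (-0.04) barely differed, and the groups overlapped in each of the 6. Limma called 0, with 3 at an unadjusted p of 0.05, and 3 passed as lower with the replicate block (3.03% of all tested features). The mean level of the 6 was 6.56 to 6.98 in Rac2-/- arrays and 6.91 to 7.50 in WT arrays. Over all tested features, 1.11% passed as lower and 0.795% as higher. Of 6 conventional dendritic cell markers 1 passed as lower, Dpp4. At an unadjusted p of 0.05 there were 3, with Flt3 also lower (-0.29) and Xcr1 higher (0.61). Of 9 macrophage markers 1 passed as higher, Mrc1. At an unadjusted p of 0.05 there were 4, with Itgam also higher (0.33) and Cd68 (-0.22) and Fcgr1 (-0.74) lower. Of the markers of neutrophils (8 tested), mast cells and basophils (4), fibroblasts and stroma (5), B cells (2) and T and NK cells (5), limma called 0. In that order 0, 4, 2, 1 and 0 of them had an unadjusted p under 0.05, and 7, 4, 5, 0 and 1 had lower means in Rac2-/- cells. The 4 mast cell and basophil markers tested had lower means in Rac2-/- cells. Over all 6 measured, including those that did not pass the filter, the mean level was 4.64 to 4.86 in Rac2-/- arrays and 4.93 to 5.70 in WT arrays. Of 12 immediate early and heat shock genes 1 passed as lower, Hspa1a, and 1 as higher, Ier3. The part of these cell types in the levels of the 8 genes was not tested.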

How the data were processed

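The deposited values are log2 expression values that the authors made with RMA. The deposited values cover 34760 features, so the methods' filter (genes expressed in at least 4 samples) had not been applied to them. The methods also name ComBat, and no source used here tells whether it was run on these values. Arrays 1 and 2 still differed from arrays 3 to 5. No column of values was left out, and no 2 arrays were identical (0 pairs). The number of arrays limits the precision.

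Symbols came from the platform annotation, updated through RefSeq (GRCm38.p6). A single symbol was given for 21640 features, several for 1321 and none for 11799. A gene was read from a single-symbol feature, that with the highest mean. Features were ranked by their fourth-highest value, and the top 27031 (4.73 or more) were tested in R 4.3.3 with limma 3.58.1 (lmFit, eBayes, no block, all 10 arrays), adjusted by Benjamini-Hochberg at 0.05. The fit was first tested on simulated data. Exact permutation tests were run on single genes. Parametric ComBat was written out in R.

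Members and gene lists were chosen with earlier results of these data known. Named are the 8 genes read, their partners, the interferon signalling genes, the 7 other interferon-stimulated genes with the smallest adjusted p and the 10 genes most like the mean of the 8. Ifnb1, Dpp4, Flt3, Xcr1, Mrc1, Itgam, Cd68, Fcgr1, Tcf4, Lag3, Hspa1a, Ier3 and the features named as not read were named outside this rule.

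After subtraction of the group mean, arrays with the same number correlated at 0.493 to 0.716. Arrays of another number in the same set correlated as well (0.476 to 0.724), and for 5 of 10 arrays the best match was the own number. These values do not show that the numbers pair the arrays. The replicate block was therefore run only as an alternative to the fit reported. The alternatives comprised the filter, the replicate block, a term for the 2 sets of arrays (batch term), ComBat, fits within each set of arrays, the variance model, array weights, quantile normalization, median centring, the mean of a gene's features and leaving out each array. Averaging arrays 3 and 4 was chosen after seeing the data.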

Additional observations from a re-analysis of the deposited data

Results flagged for a closer look

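Of 60 groups of 5 arrays looked at, 7 held an array far from the others of its genotype, and chance gives about 1 in 20. The groups share the same arrays and are not independent, so the count cannot be weighed against that rate. Among the 8 genes, Ube2l6 in Rac2-/- array 1 was high at 11.12, where the other Rac2-/- arrays read 10.21 to 10.33, and Ifit3 in WT array 1 was low at 12.18, where the other WT arrays read 12.34 to 12.40. Of the other 5, 4 were in Rac2-/- array 5. Irf7 was low there at 10.82, against 12.04 to 12.18 in the other Rac2-/- arrays. Oasl1 was low at 8.67, against 10.08 to 10.33. Ifi44l was low at 6.65, against 10.88 to 11.56. Ifi27 was high at 9.85, against 8.61 to 8.81. Tor3a in WT array 5 was high at 11.88, where the other WT arrays read 11.68 to 11.72.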

How the results depend on the processing

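The 8 differences were negative under every alternative run. With every Rac2-/- array below every WT array, leaving out, averaging or weighting arrays or adding a block or set term could not change that sign. In the fit reported, 514 features passed, 299 lower and 215 higher in Rac2-/- cells, with 7 of the 8 genes. The features past the threshold numbered 1716 with the replicate block, 2524 with the batch term, 4386 with ComBat, 1811 with array weights and 1487 in arrays 3 to 5 alone. In arrays 1 to 2 alone 2 features and 0 of the 8 genes passed, with a median difference of -0.75 over the 8. With arrays 3 and 4 of each genotype as 1 sample, 98 features and 0 of the 8 genes passed, and 1019 features with the batch term added. Leaving out 1 array gave 245 to 625 features, 4 to 8 of the 8 genes and medians of -1.08 to -0.87. Among the 8 genes, the partners, the signalling genes and the 7 other interferon-stimulated genes named, the replicate block added the calls of Ifit2, Ifit3b, Trim25 and Socs1 and changed no other call. It also added that of Sp100 (adjusted p = 0.0302). Irf3 changed sign in arrays 1 to 2 alone (0.068), and Arih1 lay between -0.0197 and 0.0557 with 1 array left out. The cause of these shifts was not tested.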
